A study of Mus musculus with 6 samples.

Results

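The genes described here are 38 genes of the cell's responses to amino acid shortage and to misfolded protein in the endoplasmic reticulum (ER), out of 27179 genes counted. They were listed by name and known role, with earlier results of these data known. A first set of 22 genes holds Atf4, its partners and the genes it is known to switch on, and a second set of 16 genes holds the ER stress sensors and the targets of ATF6 and XBP1. RNA was sequenced from 3 untreated immortalized mouse embryonic fibroblast (MEF) lines of strain C57BL/6, with 2 RNA preparations for each line. All 3 lines lack PER1 and PER2, proteins that repress the circadian activator CLOCK-BMAL1. The Cry/Per_KO genotype (cry1-/-, cry2-/-, per1-/-, per2-/-) also lacks the repressors CRY1 and CRY2, the Per/Nr1d_KO genotype (per1-/-, per2-/-, nr1d1-/-, nr1d2-/-) also lacks the nuclear receptors NR1D1 and NR1D2, and the Cry/Per/Nr1d_KO genotype (cry1-/-, cry2-/-, per1-/-, per2-/-, nr1d1-/-, nr1d2-/-) lacks all 6 proteins. The Cry/Per/Nr1d_KO line was isolated as a single clone after CRISPR mutation of Nr1d1 and Nr1d2 in the Cry/Per_KO line. The Per/Nr1d_KO line was made separately from the same kind of Per1- and Per2-deficient MEFs, so that genotype cannot be told apart from clone or line history.

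The genotype labels and the names of the deposited tables disagree for 2 of the 3 pairs of libraries. The pair labelled Cry/Per/Nr1d_KO carries the name of the Cry/Per_KO line in its tables, and the pair labelled Cry/Per_KO carries the reverse. NR1D1 and NR1D2 are known to repress Arntl, which encodes BMAL1, and Cry1, so that these mRNAs bear on which pair lacks NR1D (Arntl was chosen for this check after the conflict was seen). Arntl had 1191 and 1171 normalized counts (counts scaled between libraries) in the pair labelled Cry/Per/Nr1d_KO, 2176 and 2208 in the pair labelled Cry/Per_KO, and 2493 and 2455 in the pair labelled Per/Nr1d_KO. Cry1 had 1698 and 1724, 5323 and 5478, and 1535 and 1592 in the same order. Both genes were thus higher in the pair labelled as having NR1D than in the pair labelled as lacking it (log2 0.89 ± 0.058 for Arntl, adjusted p = 2.4e-09, and 1.66 ± 0.053 for Cry1, adjusted p = 9.6e-13, edgeR), which goes against the genotype labels of these 2 pairs and with the names of the tables.

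The paper reports Arntl and Cry1 as lower in Cry/Per_KO than in Cry/Per/Nr1d_KO cells, the order that the table names give. The group names below are still those of the genotype labels. No library was regrouped by its measured levels, and each direction drawn from the 2 pairs carries this conflict. Under the table names the values in each pair stay as given, the first comparison changes sign, the second becomes Per/Nr1d_KO against Cry/Per_KO, and the third becomes Per/Nr1d_KO against Cry/Per/Nr1d_KO.

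Cells short of amino acids, or with misfolded protein in the ER, phosphorylate the translation factor eIF2, which slows translation in general and favours translation of the Atf4 mRNA. ATF4 then switches on genes for amino acid synthesis, amino acid import and further regulators. In the ER, the sensors PERK (encoded by Eif2ak3), IRE1 (encoded by Ern1) and ATF6 act in parallel. PERK feeds into ATF4, whereas ATF6 and the XBP1 protein made after IRE1 splices its mRNA switch on chaperones and the machinery that removes misfolded protein. mRNA levels do not measure eIF2 phosphorylation, Xbp1 splicing or ATF6 cleavage.

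The promoters of these genes are shown first because the elements through which ATF4, ATF6 and XBP1 are known to act differ in sequence. RefSeq promoter windows (GRCm38.p6, from 250 bases before to 50 bases after the start) were at hand for 34 of the 38 genes, and were searched on both strands for 4 motifs. The amino acid response element, searched as TGATGNAA, is bound by ATF4 with a C/EBP partner. It occurred in 7 of the 19 ATF4 genes with a window and in 1 of the 15 ER genes with a window, against 4.51% of all 27025 genes with a window. The matching stretches are given 5′ to 3′ on the strand of the gene, with the motif or its reverse complement in capitals.

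Atf3, chr1:191183416-191183463, minus strand: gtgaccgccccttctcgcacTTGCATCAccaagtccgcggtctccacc

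Nupr1, chr7:126625553-126625600, minus strand: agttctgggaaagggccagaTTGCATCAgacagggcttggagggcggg

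Trib3, chr2:152344019-152344066, minus strand: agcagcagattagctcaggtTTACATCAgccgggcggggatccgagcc

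Chac1, chr2:119351029-119351076, plus strand: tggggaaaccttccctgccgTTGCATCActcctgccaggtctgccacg

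Vldlr, chr19:27216800-27216847, plus strand: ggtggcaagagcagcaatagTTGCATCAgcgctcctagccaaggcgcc

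Asns, chr6:7693205-7693252, minus strand: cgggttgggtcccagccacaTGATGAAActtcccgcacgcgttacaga

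Slc7a11, chr3:50443652-50443699, minus strand: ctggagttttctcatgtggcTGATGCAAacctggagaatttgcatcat

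Herpud1, chr8:94386297-94386344, plus strand: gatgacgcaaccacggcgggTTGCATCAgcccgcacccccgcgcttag

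The Slc7a11 promoter held a second match, which starts 47 bases before the start and can be read in lower case in the stretch above. The match in Trib3 begins 15 bases after the start, and those in Atf3 and Nupr1 both begin 110 bases before it. Herpud1 was the ER gene with this element.

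The ER stress element, searched as CCAAT and CCACG with any 9 bases between them, is bound by ATF6 together with NF-Y. It occurred in 5 of the 15 ER genes and in 0 of the 19 ATF4 genes with a window, against 0.137% of all genes with a window. The shorter ER stress element II, searched as ATTGG and CCACG with any 1 base between them, occurred in 2 of the 15 ER genes, in 0 of the 19 ATF4 genes and in 0.0444% of all genes with a window.

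Hspa5, chr2:34772005-34772063, plus strand: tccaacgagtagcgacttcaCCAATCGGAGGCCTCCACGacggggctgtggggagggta

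Hsp90b1, chr10:86705618-86705676, minus strand: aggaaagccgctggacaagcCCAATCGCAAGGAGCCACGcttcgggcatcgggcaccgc

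Calr, chr8:84847055-84847113, minus strand: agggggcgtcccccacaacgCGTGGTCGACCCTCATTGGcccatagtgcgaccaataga

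Pdia6, chr12:17266471-17266529, plus strand: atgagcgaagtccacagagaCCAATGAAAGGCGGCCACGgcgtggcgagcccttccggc

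Dnajc3, chr14:118937807-118937865, plus strand: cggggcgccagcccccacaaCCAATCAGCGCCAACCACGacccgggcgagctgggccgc

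Dnajb11 (element II), chr16:22857832-22857882, plus strand: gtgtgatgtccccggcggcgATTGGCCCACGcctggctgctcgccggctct

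Herpud1 (element II), chr8:94386357-94386407, plus strand: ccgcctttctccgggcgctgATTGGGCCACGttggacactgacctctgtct

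Hsp90b1 held a second ER stress element, which starts 107 bases before the start. The unfolded protein response element, searched as TGACGTGG, whose reverse complement opens with the same letters that close the ER stress element, occurred in 0.714% of all genes with a window and in no window of these genes. A match describes the letters and is not evidence of binding, and a window without a match says only that these letters are not in it. The genes were listed for their known roles in these responses, so the shares of genes with an element are a description and not a test.

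**Figure D1:**
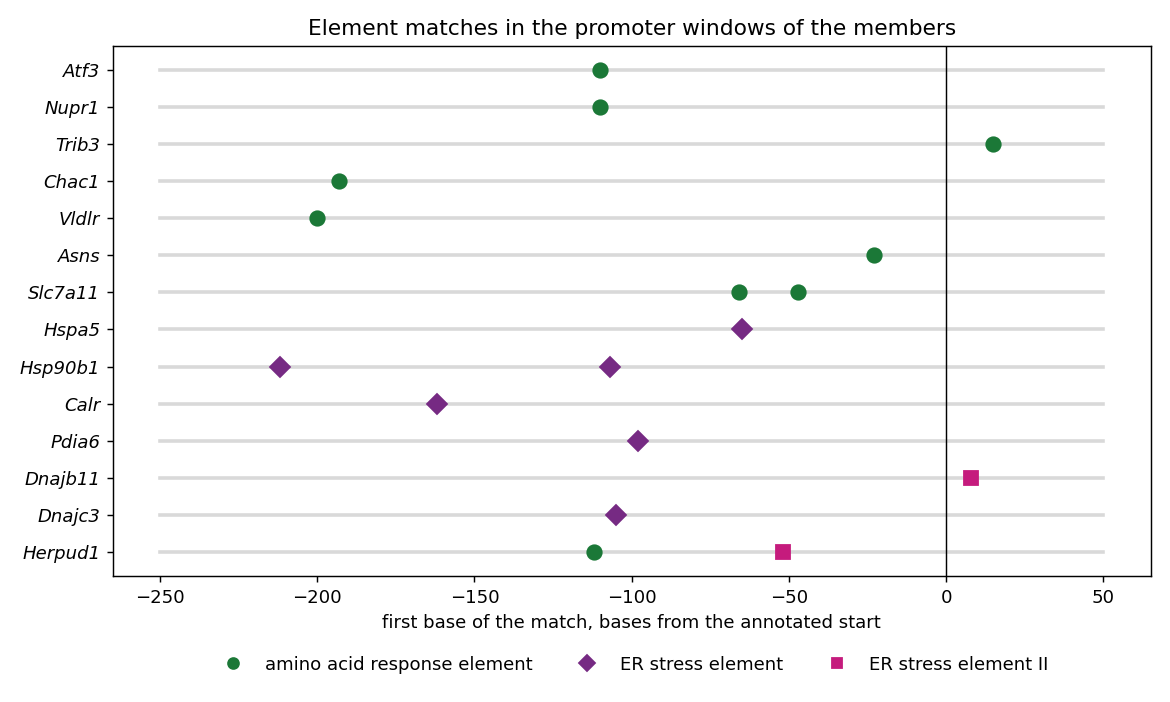
First base of each motif match relative to the annotated start (horizontal axis, bases) for the 14 genes with a match, with 1 grey line per gene for the window searched. The 7 ATF4 genes with a match carried the amino acid response element, and Herpud1 was the gene that carried both this element and an ER stress element.

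The libraries held 53764390 to 85927236 counts, and the counts are given below after scaling between libraries (normalized counts). Of the 27179 genes, 11934 had a mean of at least 100 normalized counts and were tested by the quasi-likelihood test of edgeR, with p-values adjusted over all of them (Benjamini-Hochberg). All 38 genes were among them. A gene passed the test at an adjusted p under 0.05, and was called where the log2 difference was also beyond 0.81 in either direction (the fold limit). With 2 RNA preparations of each line, the p-values measure only the spread between preparations, which was small, and 76.4%, 75.8% and 82.1% of all genes tested passed in the 3 comparisons. The preparations are described as independent experiments on each line. The mRNAs of the 6 mutated genes were still present at 1004 to 9337 normalized counts in every library, and all 6 were highest in the pair labelled Cry/Per_KO. The paper reports Cry1, Per1, Per2, Nr1d1 and Nr1d2 as lower in Cry/Per_KO than in Cry/Per/Nr1d_KO cells. For these genes the order found here goes with the table names and against the genotype labels. Summed fibroblast markers reached 513000 to 1070000 normalized counts, against at most 138 for epithelial, 120 for endothelial and 280 for haematopoietic markers, while the fibroblast marker Thy1 was at 0 in 3 of the 6 libraries. The pair labelled Per/Nr1d_KO stood apart in these markers. All 7 fibroblast markers tested were called in it against the pair labelled Cry/Per/Nr1d_KO, with the collagens Col1a1, Col1a2 and Col3a1 higher and Vim, Pdgfra, Pdgfrb and S100a4 lower (log2 -2.83 to 5.72). In bulk RNA, fewer cells that express a gene and less RNA per cell cannot be told apart.

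The 22 ATF4 genes were mostly highest in the pair labelled Cry/Per/Nr1d_KO and lowest in the pair labelled Cry/Per_KO, the pairs whose labels go against Arntl and Cry1. Both libraries labelled Cry/Per/Nr1d_KO lay above the other 4 libraries for 14 of the 22 genes, against 21.1% of all genes tested. Both libraries labelled Cry/Per_KO lay below the other 4 for 13 of the 22, against 31% of all genes tested. The opposite positions were rarer, with the pair labelled Cry/Per/Nr1d_KO lowest for 1 gene, against 21% of all genes, and the pair labelled Cry/Per_KO highest for 2, against 29.7%. Their summed share of a library was 0.45% and 0.429% for the pair labelled Cry/Per/Nr1d_KO, 0.303% and 0.322% for the pair labelled Cry/Per_KO, and 0.372% and 0.369% for the pair labelled Per/Nr1d_KO. The 3 pairs did not overlap.

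The 16 ER genes had another order. Their summed share was 0.601% and 0.605% for the pair labelled Cry/Per/Nr1d_KO, 0.562% and 0.557% for the pair labelled Cry/Per_KO, and 0.665% and 0.687% for the pair labelled Per/Nr1d_KO, again without overlap. The pair labelled Per/Nr1d_KO was above the other 4 libraries for 7 of the 16 genes, against 32.7% of all genes tested, and below them for 1, against 30.2%. By gene, the pair labelled Cry/Per/Nr1d_KO was lowest for 8 of the 16, against 21% of all genes tested, and the pair labelled Cry/Per_KO for 7, against 31%. These shares weigh the genes by abundance, and the chaperones Hsp90b1, Hspa5 and Calr make up most of the ER sum.

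**Figure D2:**
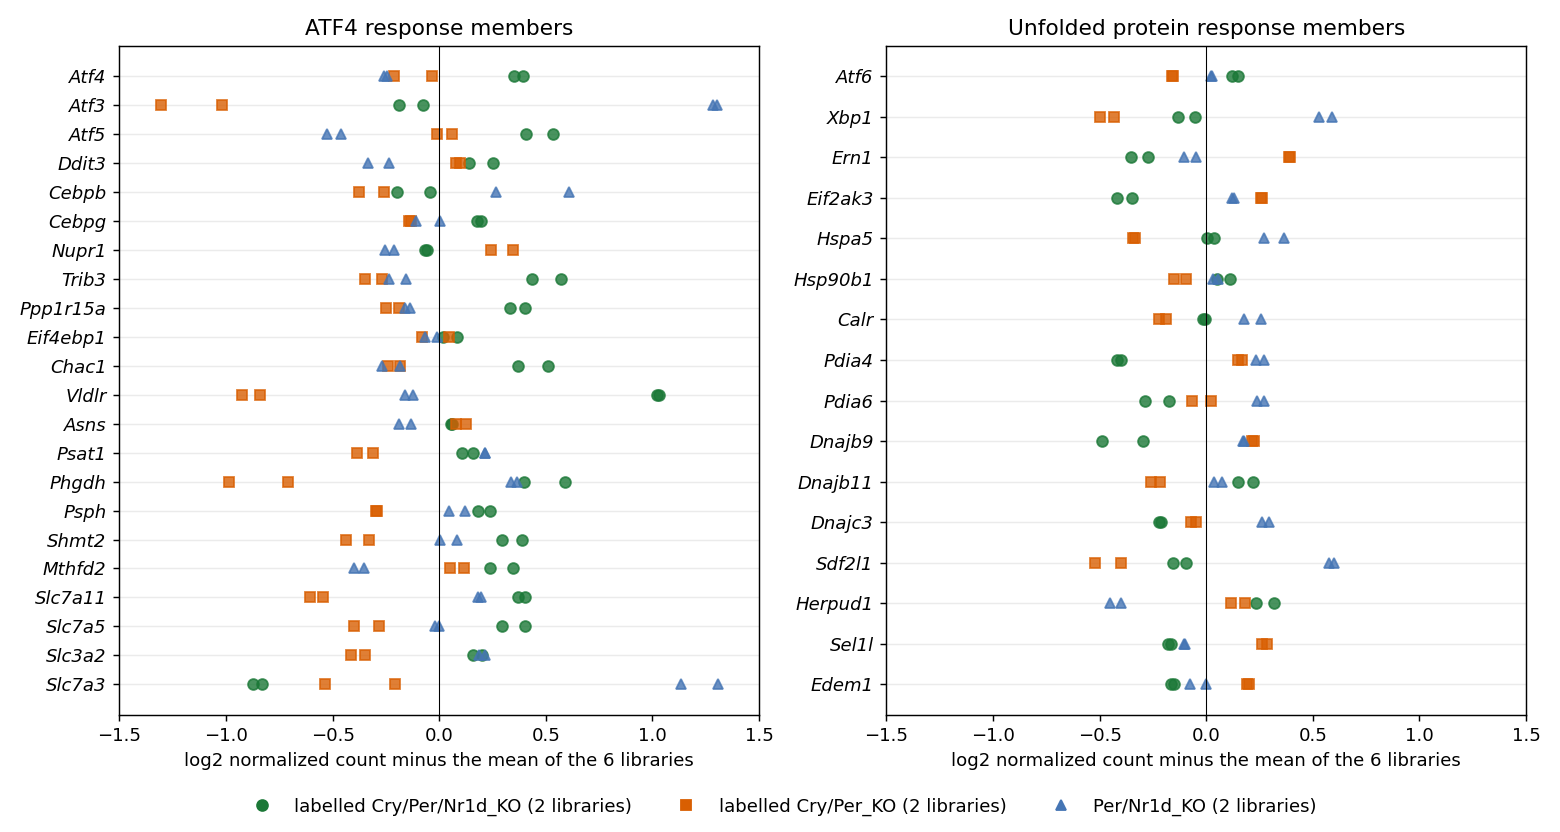
Level of each of the 38 genes in each of the 6 libraries, as the log2 normalized count minus the mean of the 6 libraries, with ATF4 genes and ER genes in separate panels and colour for the genotype label. Points of the same label lie close together relative to the distances between labels for most genes, and the pair labelled Cry/Per_KO lies below the others for 13 of the 22 ATF4 genes.

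The first comparison, which addresses NR1D1 and NR1D2, set the pair labelled Cry/Per_KO against the pair labelled Cry/Per/Nr1d_KO. Its direction with respect to NR1D is reversed under the table names. Of the 22 ATF4 genes, 16 were lower in the pair labelled Cry/Per_KO, 2 were higher and 4 did not pass the test, with a median log2 difference of -0.50 against 0 over all genes tested. Of all genes tested, 38.3% were lower and 38.1% higher in this comparison. The called ATF4 genes were 5 of 22, all of them lower, against 8.95% of all genes called lower, 7.86% called higher and 16.8% called in either direction. Of the 16 ER genes 0 were called by edgeR and 0 by DESeq2, and they split evenly, with 8 higher and 8 lower at any fold and a median of 0.02.

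The second comparison addresses CRY1 and CRY2 by the labels, but not by the table names, under which the pairs differ in both CRY and NR1D. It set the pair labelled Per/Nr1d_KO against the pair labelled Cry/Per/Nr1d_KO. Of the 22 ATF4 genes, 15 were lower in the pair labelled Per/Nr1d_KO, 3 were higher and 4 did not pass, against 37.1% of all genes lower and 38.7% higher. The median log2 difference was -0.23, against 0.01 over all genes tested. Called ATF4 genes were 2 higher and 2 lower, against 11.3% of all genes called higher, 9.35% called lower and 20.7% called in either direction. Of the 16 ER genes, 11 were higher, 3 were lower and 2 did not pass, with a median of 0.27, and 0 were called by edgeR or by DESeq2.

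The third comparison is the one that addresses CRY1 and CRY2 under the table names. It set the pair labelled Per/Nr1d_KO against the pair labelled Cry/Per_KO. Of the 22 ATF4 genes, 11 were higher in the pair labelled Per/Nr1d_KO, 6 were lower and 5 did not pass, against 42.8% of all genes higher and 39.3% lower. Of the 16 ER genes, 10 were higher and 5 lower. Called genes were 3 of the 22 ATF4 genes and 2 of the 16 ER genes, all higher, against 15.2% of all genes called higher, 13.8% called lower and 29% called in either direction. Over the 3 comparisons 9 of the 38 genes were called at least once, against 36.3% of all genes tested, so the members were not called more often than other genes. The 3 comparisons share libraries, so that their values are not independent of each other.

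**Figure D3:**
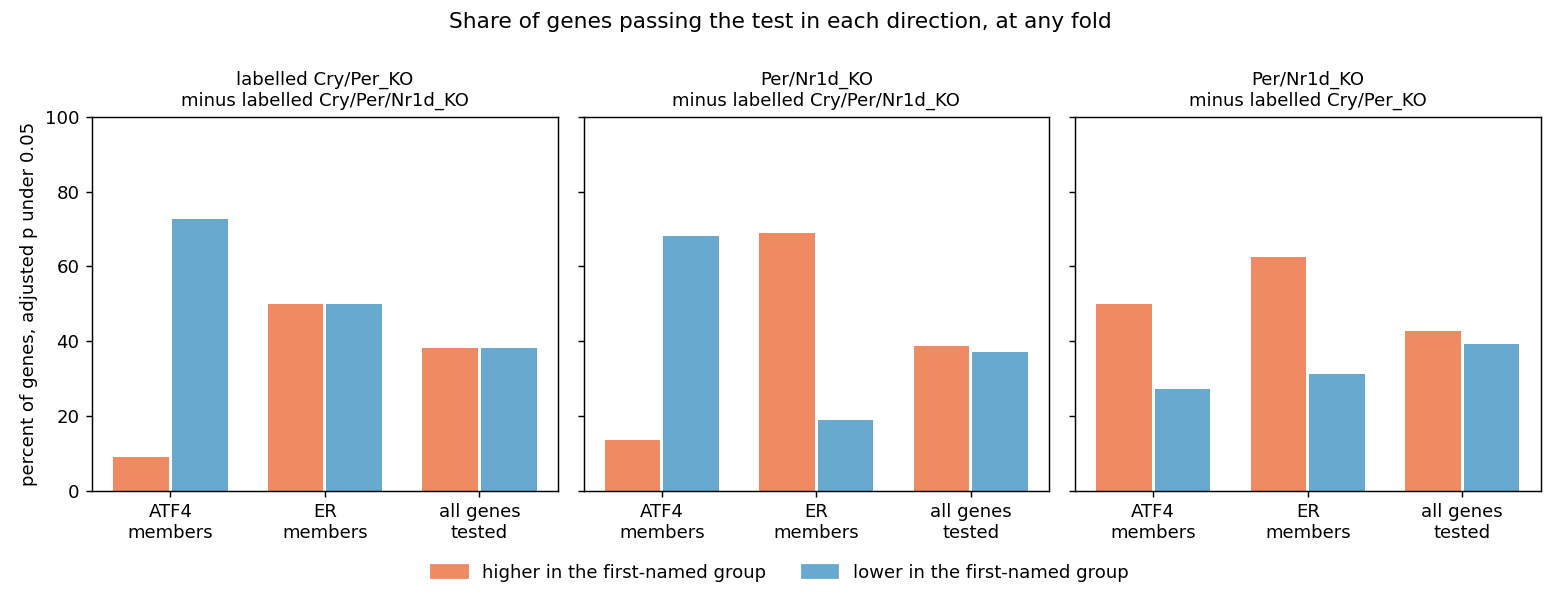
Percent of the 22 ATF4 genes, the 16 ER genes and all genes tested that passed the test (adjusted p under 0.05, any fold) as higher or lower in the first-named pair, in each of the 3 comparisons. Lower genes made up 72.7% of the ATF4 genes in the first comparison and 68.2% in the second, against 38.3% and 37.1% of all genes tested. Higher genes made up 68.8% of the ER genes in the second and 62.5% in the third, against 38.7% and 42.8% of all genes tested.

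**Figure D4:**
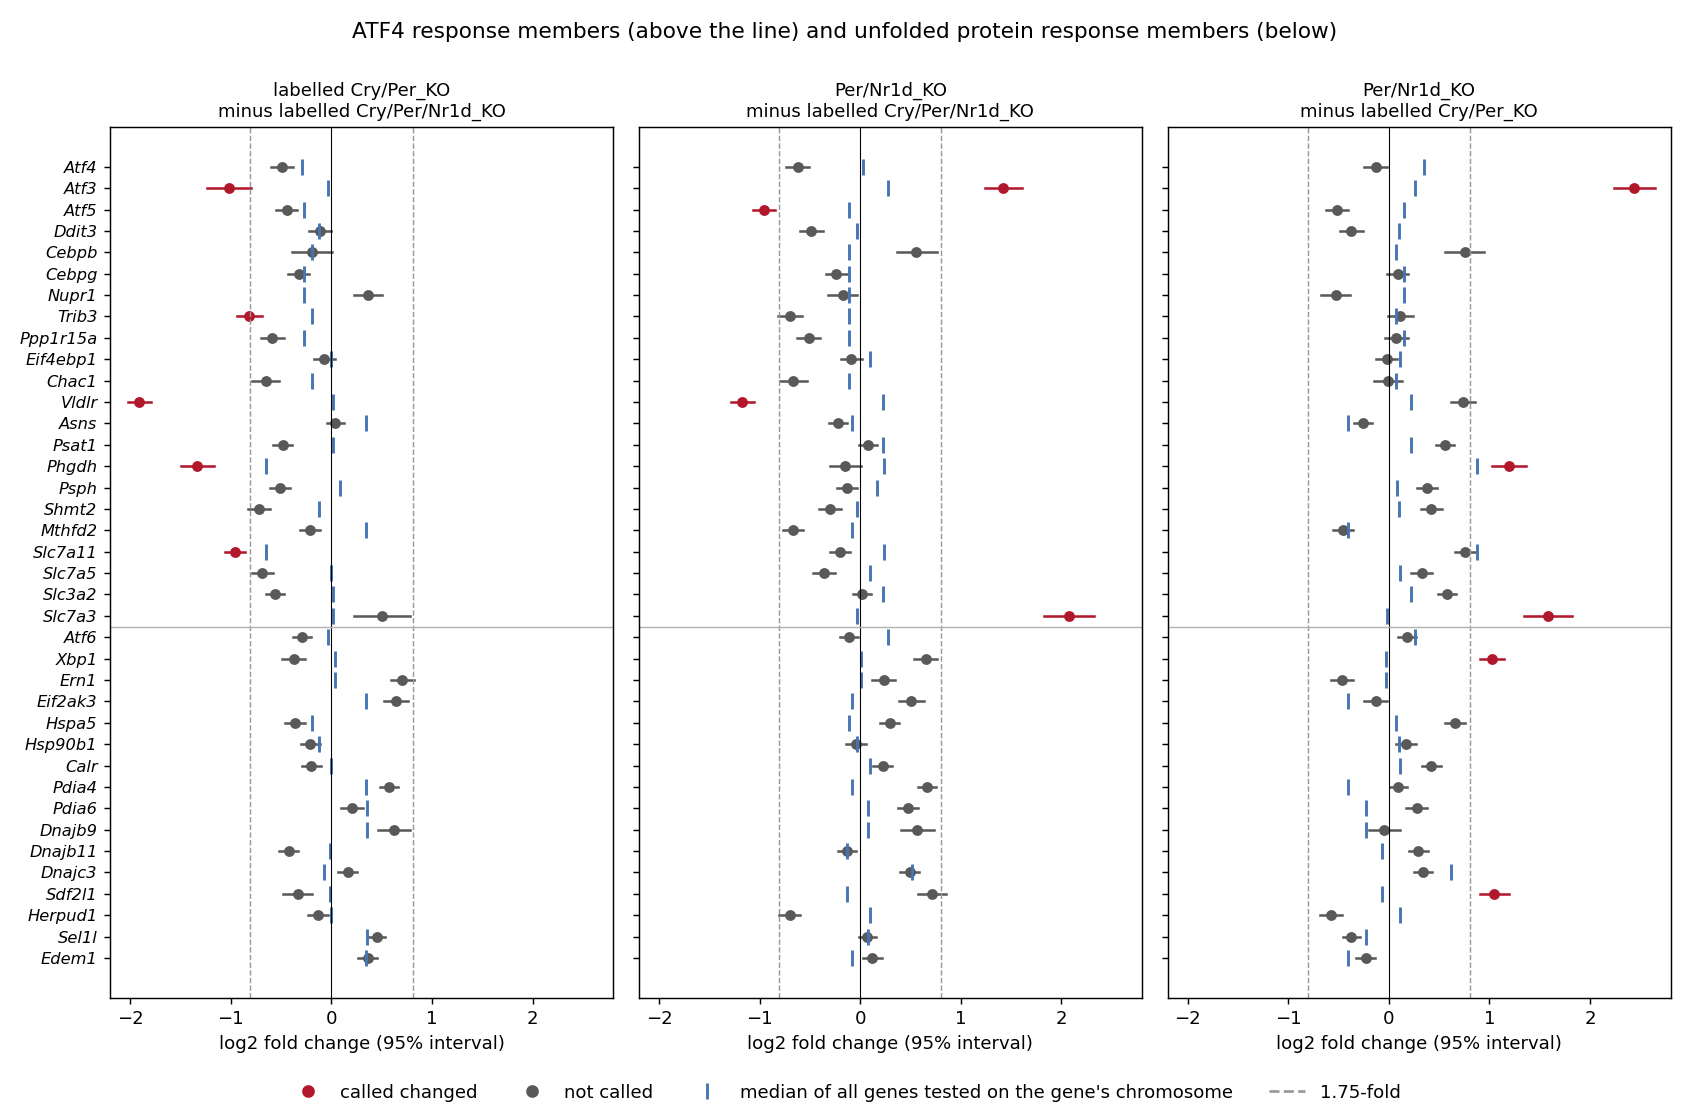
Log2 fold change of each of the 38 genes with its 95% interval in the 3 comparisons, with dashed lines at the fold limit, 0.81 on either side of 0, red points for called genes and blue ticks for the median of all genes tested on the gene's chromosome. Most ATF4 genes lie left of 0 in the first and second comparisons, and 9 of the 38 genes were called in at least 1 comparison, against 36.3% of all genes tested.

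Among the regulators, Atf4 itself was highest in the pair labelled Cry/Per/Nr1d_KO. Its mRNA stood at 22498 and 21781 normalized counts there, at 14777 and 16733 in the pair labelled Cry/Per_KO, and at 14444 and 14308 in the pair labelled Per/Nr1d_KO. Both other pairs lay below the first without overlap. The log2 difference was -0.49 ± 0.053 (SE) for Cry/Per_KO (adjusted p = 6.3e-07, edgeR) and -0.62 ± 0.053 for Per/Nr1d_KO (adjusted p = 3.5e-08, edgeR), both short of the fold limit. Chromosome 15, which holds Atf4, had a median log2 difference of -0.29 in the first comparison and 0.03 in the second.

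Atf3, a stress-induced repressor and a target of ATF4, had the largest difference among the 38 genes. It stood at 511 and 473 normalized counts in the pair labelled Cry/Per/Nr1d_KO, 218 and 266 in the pair labelled Cry/Per_KO, and 1314 and 1331 in the pair labelled Per/Nr1d_KO. The 3 pairs were fully separate, and the pair labelled Per/Nr1d_KO, which was lowest for Atf4, was highest here. Atf3 was 5.44-fold higher in the pair labelled Per/Nr1d_KO than in the pair labelled Cry/Per_KO (log2 2.44 ± 0.096, adjusted p = 2.3e-12, edgeR), and was called in all 3 comparisons.

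Atf5, a factor whose translation is also favoured when eIF2 is phosphorylated, had the same order of pairs as Atf4, with 11530 and 10560 normalized counts in the pair labelled Cry/Per/Nr1d_KO, 7927 and 8316 in the pair labelled Cry/Per_KO, and 5529 and 5788 in the pair labelled Per/Nr1d_KO. The 3 pairs did not overlap, and the difference between the first and the last was called (log2 -0.96 ± 0.052, adjusted p = 1.3e-10, edgeR).

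Trib3, a pseudokinase that restrains ATF4, had 5300 and 4819 normalized counts in the pair labelled Cry/Per/Nr1d_KO, 2796 and 2957 in the pair labelled Cry/Per_KO, and 3022 and 3202 in the pair labelled Per/Nr1d_KO. The first pair stood above both others. Its difference in the first comparison was 1.76-fold (log2 -0.82 ± 0.058, adjusted p = 6.2e-09, edgeR), just past the fold limit, and the call was lost without replicate 1 of Cry/Per/Nr1d_KO (-0.74) or of Cry/Per_KO (-0.78). Chac1, which degrades glutathione, and Ppp1r15a, the stress-induced subunit of the eIF2 phosphatase, had the same pattern with smaller differences of -0.65 and -0.59 in the first comparison and -0.67 and -0.51 in the second. Neither passed the test between the pairs labelled Per/Nr1d_KO and Cry/Per_KO, where the interval of the log2 difference was -0.15 to 0.13 for Chac1 and -0.04 to 0.19 for Ppp1r15a.

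Vldlr, a lipoprotein receptor that ATF4 induces, had 5480 and 5515 normalized counts in the pair labelled Cry/Per/Nr1d_KO, 1422 and 1507 in the pair labelled Cry/Per_KO, and 2483 and 2414 in the pair labelled Per/Nr1d_KO. The 3 pairs were separate. It was 3.75-fold lower in the pair labelled Cry/Per_KO (log2 -1.91 ± 0.054, adjusted p = 2.6e-13, edgeR) and 2.25-fold lower in the pair labelled Per/Nr1d_KO (log2 -1.17 ± 0.051, adjusted p = 1.1e-11, edgeR) than in the pair labelled Cry/Per/Nr1d_KO.

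The other regulators moved less or in other orders. Ddit3, which encodes the pro-apoptotic factor CHOP, was lowest in the pair labelled Per/Nr1d_KO at 3626 and 3385 normalized counts, against 4513 to 5085 in the other 4 libraries. Cebpb, which encodes a partner of ATF4, was highest there at 3382 and 2661 against 1708 to 2146, and its log2 difference from Cry/Per_KO of 0.76 ± 0.092 passed the fold limit without replicate 2 of Cry/Per_KO (0.82) or of Per/Nr1d_KO (0.93). Of the exon bases of Cebpb, 20.7% lie opposite Tmem189, and 18.1% of its 50-base stretches occur in other genes. Cebpg, another partner, was lower by 0.32 and 0.24 in the first and second comparisons.

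Nupr1, a stress-induced chromatin protein, went against the other regulators. It had 1488 and 1597 normalized counts in the pair labelled Cry/Per_KO, 1199 and 1208 in the pair labelled Cry/Per/Nr1d_KO and 1084 and 1052 in the pair labelled Per/Nr1d_KO, and was higher by 0.36 in the first comparison (adjusted p = 0.00015, edgeR). Eif4ebp1, an inhibitor of cap-dependent translation, was the 1 gene of the 38 that passed the test in no comparison. It ranged from 10540 to 11791 normalized counts over the 6 libraries, and the intervals of its log2 difference were -0.17 to 0.04, -0.19 to 0.02 and -0.13 to 0.08.

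Of the 6 amino acid and one-carbon enzymes, 5 were lower in the pair labelled Cry/Per_KO than in the pair labelled Cry/Per/Nr1d_KO, and 1, Asns, did not pass. Of all genes tested, 38.3% were lower in this comparison. The serine pathway runs through Phgdh, Psat1 and Psph. Phgdh, its first enzyme, had 7105 and 6221 normalized counts in the pair labelled Cry/Per/Nr1d_KO, 2384 and 2881 in the pair labelled Cry/Per_KO, and 5962 and 6074 in the pair labelled Per/Nr1d_KO.

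The pair labelled Cry/Per_KO was below all other libraries for Phgdh, and the other pairs did not pass the test between them (adjusted p = 0.081, edgeR). Phgdh was called lower in the first comparison (log2 -1.34 ± 0.077, adjusted p = 5.8e-10, edgeR) and higher in the third (log2 1.19 ± 0.077, adjusted p = 9.5e-10, edgeR). Of its 50-base stretches, 47.8% also occur in other genes, 23 of them, so its counts are uncertain.

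The later steps of serine synthesis had the same low pair. Psat1 had 34038 and 35778 normalized counts in the pair labelled Cry/Per_KO against 47860 to 51504 in the other 4 libraries, a log2 difference of -0.48 in the first comparison and 0.56 in the third. Psph had 5506 and 5517 there against 6969 to 7984, and 10.4% of its exon bases lie opposite Cct6a. Shmt2, the mitochondrial enzyme that passes the serine carbon to folate, had 27951 and 30200 there against 37933 to 49524. No call was made for these genes, whose largest fold was 1.65.

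Mthfd2, the next mitochondrial folate enzyme, differed from Shmt2 in being lowest in the pair labelled Per/Nr1d_KO, at 11058 and 11424 normalized counts against 15137 to 18586. Asns, asparagine synthetase and a standard readout of ATF4, had 20646 and 20613 normalized counts in the pair labelled Cry/Per/Nr1d_KO, 20904 and 21650 in the pair labelled Cry/Per_KO, and 17414 and 18058 in the pair labelled Per/Nr1d_KO. The last pair was below the other 4 libraries. The interval of its log2 difference in the first comparison was -0.04 to 0.13 (adjusted p = 0.34, edgeR), although its promoter holds the element shown above.

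Among the 4 amino acid transporters, 3 were lower and 1 higher in the first comparison, against 38.3% and 38.1% of all genes tested. Slc7a11, the cystine importer xCT, had 5269 and 5377 normalized counts in the pair labelled Cry/Per/Nr1d_KO, 2677 and 2790 in the pair labelled Cry/Per_KO, and 4612 and 4666 in the pair labelled Per/Nr1d_KO. The pair labelled Cry/Per_KO stood far below both others, with a called difference of -0.96 ± 0.048 in the first comparison (adjusted p = 1.3e-10, edgeR).

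Slc7a5, the large neutral amino acid transporter LAT1, and Slc3a2, the heavy chain it shares with xCT, were also lowest in the pair labelled Cry/Per_KO. Slc7a5 had 19005 and 20605 normalized counts there against 24680 to 33078 in the other 4 libraries. Slc3a2 had 17253 and 18045 there against 25614 to 26690, and the pairs labelled Per/Nr1d_KO and Cry/Per/Nr1d_KO overlapped (interval of the log2 difference -0.07 to 0.11).

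Slc7a3, a cationic amino acid transporter, was the least abundant of the 38 per kb of exon and went the other way. It had 174 and 179 normalized counts in the pair labelled Cry/Per/Nr1d_KO, 220 and 276 in the pair labelled Cry/Per_KO, and 698 and 789 in the pair labelled Per/Nr1d_KO. The last pair stood far above the others, 4.24-fold above Cry/Per/Nr1d_KO (log2 2.08 ± 0.12, adjusted p = 2.3e-10, edgeR) and 3-fold above Cry/Per_KO (log2 1.58 ± 0.11, adjusted p = 2.8e-09, edgeR).

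**Figure D5:**
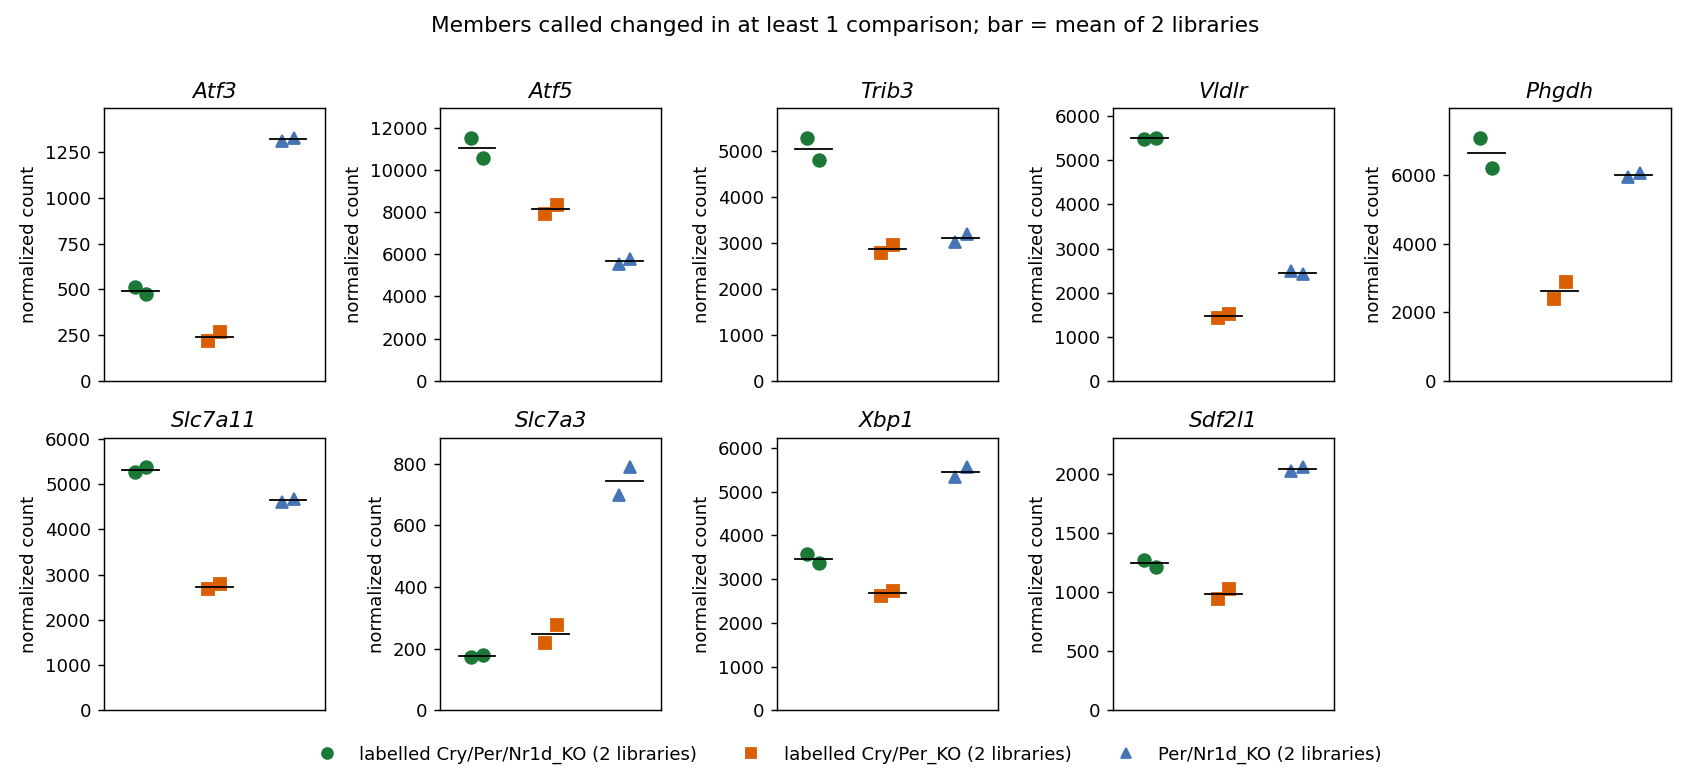
Normalized counts in each of the 6 libraries for the 9 genes called in at least 1 comparison, each panel with its own axis from 0, a bar at the mean of the 2 libraries, and colour for the genotype label. The pair labelled Cry/Per_KO is lowest for Atf3, Trib3, Vldlr, Phgdh, Slc7a11, Xbp1 and Sdf2l1.

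Of the called differences in the first comparison, 4 fell among the 7 ATF4 genes with an amino acid response element in the window (Atf3, Trib3, Vldlr and Slc7a11), and 1, Phgdh, among the 12 with a window and no match. The log2 differences of the genes with a match ran from -1.91 to 0.36 and those of the genes without from -1.34 to -0.11, so the ranges overlapped. Over all genes tested with a window, 10% of the 240 with this element were called lower in the first comparison, against 8.45% of the 9112 without it. In the second comparison 1 gene with a match was called lower and 1 higher, against 1 called lower without a match, and in the third 1 with and 1 without a match were called, both higher. Over all genes tested with a window, 11.2% with the element were called lower and 13.3% higher in the second comparison. Those without it stood at 8.72% and 10.7%. In the third the lower and higher shares were 15% and 20% with the element, against 13.3% and 14.5% without it.

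Some of the called genes lie where many neighbours differ in the same direction. On chromosome 3, which holds Phgdh and Slc7a11, the median log2 difference over the 577 genes tested was -0.65 in the first comparison and 0.88 in the third. Chromosome 7, which holds Atf5, Cebpg, Nupr1 and Ppp1r15a, had a median of -0.27 in the first comparison and -0.11 in the second. After the median of the chromosome was subtracted, Trib3 (-0.62), Phgdh (-0.69) and Slc7a11 (-0.32) were no longer called in the first comparison and Phgdh (0.31) was not called in the third, while Atf3 and Vldlr stayed called. The part of whole chromosomes in these results was not tested.

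Of the sensors of ER stress, Eif2ak3 and Ern1 were lowest in the pair labelled Cry/Per/Nr1d_KO. Eif2ak3, which encodes PERK, had 1698 and 1617 normalized counts there, 2580 and 2590 in the pair labelled Cry/Per_KO, and 2350 and 2362 in the pair labelled Per/Nr1d_KO. Ern1, which encodes IRE1, had 2291 and 2424, 3826 and 3844, and 2829 and 2725 in the same order. Both were higher in the first comparison, by 0.64 and 0.70, in the opposite direction to Atf4 and most of its targets. Chromosome 6, which holds Eif2ak3, had a median of 0.34 in that comparison, and 8.05% of the exon bases of Eif2ak3 lie opposite another gene.

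Xbp1, the factor that IRE1 activates by splicing, was highest in the pair labelled Per/Nr1d_KO. It had 5325 and 5558 normalized counts there, 3565 and 3364 in the pair labelled Cry/Per/Nr1d_KO, and 2612 and 2734 in the pair labelled Cry/Per_KO. The 3 pairs were separate, and the 2.04-fold difference in the third comparison was called (log2 1.03 ± 0.052, adjusted p = 4.9e-11, edgeR). Atf6 differed little, with 9099 and 9279 in the pair labelled Cry/Per/Nr1d_KO, 7493 and 7527 in the pair labelled Cry/Per_KO, and 8520 and 8535 in the pair labelled Per/Nr1d_KO.

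Among the 9 chaperones and folding enzymes, 7 were higher, 1 was lower and 1 did not pass in the pair labelled Per/Nr1d_KO against Cry/Per/Nr1d_KO, and 8 were higher and none lower against Cry/Per_KO, with 1 that did not pass. Of all genes tested, 38.7% and 42.8% were higher in these comparisons. By gene, the 11 other ER chaperones listed as companions did not share this direction. They stood at 5 higher and 4 lower in the second comparison (median -0.11) and 5 higher and 5 lower in the third (median -0.05). Their summed share of a library was still highest in the pair labelled Per/Nr1d_KO, at 0.423% and 0.426%. It was 0.35% and 0.356% in the pair labelled Cry/Per/Nr1d_KO, and 0.331% and 0.333% in the pair labelled Cry/Per_KO. The fibroblast markers also differ in this pair, with collagens higher and the others lower, and their part in the result was not tested. Hspa5, the chaperone BiP that holds the sensors inactive, had 73784 and 72043 normalized counts in the pair labelled Cry/Per/Nr1d_KO, 56923 and 56637 in the pair labelled Cry/Per_KO, and 86597 and 92531 in the pair labelled Per/Nr1d_KO. The 3 pairs did not overlap, and the log2 difference in the third comparison was 0.66 ± 0.046 (adjusted p = 2.3e-09, edgeR).

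Sdf2l1, a component of the BiP chaperone complex, had the same order at a lower level. It had 1270 and 1217 normalized counts in the pair labelled Cry/Per/Nr1d_KO, 945 and 1028 in the pair labelled Cry/Per_KO, and 2022 and 2059 in the pair labelled Per/Nr1d_KO. Its 2.07-fold difference in the third comparison was called (log2 1.05 ± 0.067, adjusted p = 7.6e-10, edgeR). Calr, the lectin chaperone calreticulin, followed the same order with 60997 to 62426 in the pair labelled Cry/Per_KO and 80466 to 84986 in the pair labelled Per/Nr1d_KO.

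Hsp90b1, the ER member of the HSP90 family, was the most abundant of the 38 genes per kb of exon. It ranged from 121560 to 146150 normalized counts, and its difference in the second comparison was -0.04, with an interval of -0.14 to 0.06. Of its exon bases, 10.3% lie opposite another gene.

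Pdia4, a protein disulfide isomerase, and Dnajb9, a BiP cochaperone, were lowest in the pair labelled Cry/Per/Nr1d_KO. Pdia4 had 15054 and 15245 normalized counts there against 22360 to 24287 in the other 4 libraries. Dnajb9 had 779 and 890 there against 1233 to 1280. Pdia6, another isomerase, and Dnajc3, a cochaperone that inhibits eIF2 kinases, were highest in the pair labelled Per/Nr1d_KO, at 39972 and 40883 and at 8962 and 9143. Chromosome 14, which holds Dnajc3, had a median of 0.52 in the second comparison, where Dnajc3 was higher by 0.50. Dnajb11, a cochaperone with element II, was lowest in the pair labelled Cry/Per_KO, at 8867 and 9120 against 10878 to 12334.

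The 3 genes of ER-associated degradation were all lower in the pair labelled Per/Nr1d_KO than in the pair labelled Cry/Per_KO, where 8 of the 9 chaperones were higher. Of all genes tested, 39.3% were lower in this comparison, and the 10 other degradation and processing genes that could be tested did not share the direction, with 6 higher and 1 lower (median 0.15). With the median of the chromosome subtracted, Edem1 turned to 0.18 and the chaperone Dnajc3 to -0.28 in this comparison, while Herpud1 (-0.69) and Sel1l (-0.14) stayed negative. Herpud1, which holds the degradation complex together, had 9884 and 9311 normalized counts in the pair labelled Cry/Per/Nr1d_KO, 8590 and 8996 in the pair labelled Cry/Per_KO, and 6009 and 5791 in the pair labelled Per/Nr1d_KO. The last pair stood below all others (log2 -0.70 ± 0.048 in the second comparison, adjusted p = 2.5e-09, edgeR), so that Herpud1, whose promoter holds both kinds of element, was lowest where Xbp1 and Hspa5 were highest.

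Sel1l, the adaptor of the ubiquitin ligase, and Edem1, which delivers misfolded glycoproteins, were highest in the pair labelled Cry/Per_KO. Sel1l had 17247 and 17503 normalized counts there against 12672 to 13403 in the other 4 libraries, and Edem1 had 8829 and 8885 against 6885 to 7718. Both lie on chromosomes with a raised median in the first comparison, of 0.35 for chromosome 12 and 0.34 for chromosome 6, against differences of 0.45 and 0.36.

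Other genes of the same pathways were listed as companions, and 67 of 71 could be tested. In the first comparison 42 were lower, 9 higher and 16 did not pass, with 7 called lower and 1 called higher. Over all genes tested 38.3% were lower and 38.1% higher at any fold, and 8.95% were called lower and 7.86% higher. The share of companions called lower was thus near that of all genes, and the share called higher was below it. Of the 15 other amino acid response genes tested, 9 were lower and 4 higher, with 5 called lower and 0 called higher (median -0.74). Of the 20 cytosolic aminoacyl-tRNA synthetases, 17 were lower and 1 higher in the pair labelled Cry/Per_KO, and of the 11 eIF2 kinases, subunits and phosphatase genes, 9 were lower and 0 higher. The 11 other ER chaperones split, with 5 lower and 2 higher. In the second comparison the pooled companions did not share the direction of the ATF4 genes, with 28 higher and 26 lower (median 0.03). The 15 other amino acid response genes did share that direction, with 9 lower and 5 higher (median -0.28). The synthetases stood at 7 higher and 8 lower, and the eIF2 genes at 4 higher and 4 lower. The other ER chaperones stood at 5 higher and 4 lower, and the degradation and processing genes at 7 higher and 1 lower. Over all genes tested, 38.7% were higher and 37.1% lower at any fold in the second comparison. In the third comparison 41 companions were higher and 15 lower at any fold, against 42.8% and 39.3% of all genes tested. Called companions were 11 higher and 3 lower, against 15.2% of all genes tested called higher and 13.8% called lower.

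The companion with the largest fall was Cth, which makes cysteine from cystathionine. It had 5518 and 5166 normalized counts in the pair labelled Cry/Per/Nr1d_KO, 822 and 891 in the pair labelled Cry/Per_KO, and 3284 and 3242 in the pair labelled Per/Nr1d_KO. The difference in the first comparison was 6.23-fold (log2 -2.64, adjusted p = 2.7e-14, edgeR), on chromosome 3.

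The companion that rose most in the first comparison was Ero1lb, an ER oxidase, with 1289 and 1323 normalized counts in the pair labelled Cry/Per_KO against 491 to 560 in the other 4 libraries. Eif2ak2, the eIF2 kinase PKR that responds to double-stranded RNA, had 21209 and 21545 in the pair labelled Per/Nr1d_KO against 4912 to 5655 in the other 4 (log2 2.05 in the second comparison, adjusted p = 1.8e-14, edgeR). Stc2, a secreted glycoprotein that ATF4 induces, fell most in the second comparison, with 1233 and 1153 in the pair labelled Cry/Per/Nr1d_KO, 402 and 394 in the pair labelled Cry/Per_KO, and 603 and 648 in the pair labelled Per/Nr1d_KO.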

How the data were processed

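Polyadenylated RNA from 6 libraries was sequenced as 50-base single-end reads with a stranded kit. Reads were aligned by the authors (STAR, mm10), and the deposited values are raw featureCounts counts for each Entrez gene. Whether strand was used in counting is not given in the sources used here. Deposited DESeq2 1.22.2 tables of the authors' comparisons (base mean, log2 fold change, SE, p-values) were not used. Of the gene IDs, 25275 (93%) matched a RefSeq symbol. The counts were scaled by TMM and fitted over all 6 libraries with edgeR 4.0.16 in R 4.3.3, grouped by genotype label and without a replicate block, for genes whose normalized count averaged 100 or more. Intervals are at 95%. The script was tested on simulated counts. Alternatives were DESeq2 1.42.0 (with the adjusted p at 0.05 or 1e-22), DESeq2's size factors in edgeR, other filters and fold limits, the compared groups alone, a replicate block, the chromosome median subtracted, and leaving out each library. The members and lists were chosen with earlier results of these data known. All 38 members are named, and of the companions the called gene that rose most and the one that fell most in each comparison. Exon overlaps and shared 50-base stretches were read from the gene annotation. Same-line libraries correlated at 0.9979 to 0.9981 (log2 CPM, prior count 2).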

Additional observations from a re-analysis of the deposited data

How the results depend on the processing

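Each line had 2 libraries, and the 38 genes had 174 to 146150 normalized counts in each library, while the effect of depth was not tested. Line and genotype cannot be told apart, and Arntl, Cry1, Per1, Per2, Nr1d1 and Nr1d2 go against the labels of 2 pairs. Of the 126 fold changes of members and named companions, all 126 kept their direction and their call under DESeq2, median-of-ratios size factors, the compared groups alone and both other filters. Libraries of the same replicate number deviated with correlations of -0.21, -0.1 and -0.02, so the numbers pair nothing, and the replicate block changed none of the 126 calls, with 2002 genes called in the first comparison. DESeq2 at an adjusted p under 1e-22 called 1149, 1803 and 2592 genes in the 3 comparisons, without Atf3 in the first and without Stc2 in the second, and its counts of members at any fold were 0 ATF4 genes higher and 8 lower and 3 ER genes higher and 0 lower in the first, 5 ATF4 lower, 3 ER higher and 1 ER lower in the second, and 7 ATF4 higher, 0 ATF4 lower, 3 ER higher and 1 ER lower in the third. No filter gave 3808, 4576 and 5590 called genes, and a mean of at least 10 gave 3311 and 3912 in the first and second. No limit on the fold gave 9118, 9042 and 9793 genes, 18, 18 and 17 ATF4 genes and 16, 14 and 15 ER genes. With the chromosome median subtracted, 2 ATF4 genes were called in the first comparison and 1 ER gene, Sdf2l1 (0.84), in the second. The sign then turned for Ddit3 (0.01), Cebpb (0), Asns (-0.3) and Pdia6 (-0.14) in the first comparison, for Psat1 (-0.15), Slc3a2 (-0.2), Dnajc3 (-0.02) and Sel1l (-0.01) in the second, and for Cebpg (-0.07), Ppp1r15a (-0.08), Asns (0.15), Slc7a11 (-0.12), Atf6 (-0.08), Eif2ak3 (0.28), Dnajb9 (0.19), Dnajc3 (-0.28) and Edem1 (0.18) in the third. Leaving out each library gave 1 to 2 ATF4 genes higher at any fold in the first comparison and 1 to 3 ER genes lower in the second, and 4 to 5 called ATF4 genes in the first. Without a library the sign turned for Slc3a2 (0) in the second comparison, and in the third for Eif4ebp1 (0.01 and 0.04) and for Chac1 (0.02 and 0.03), whose values over all libraries left out ran from -0.05 to 0.03. Apart from the subtraction and the filters, whose construction sets them, the cause was not tested.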
